A study of Homo sapiens with 8 samples.

Results

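The genes described here are 54 genes of DNA replication and nucleotide synthesis, chosen by symbol: 5 E2F transcription factors, 11 genes of origin licensing, 8 of helicase activation, 5 of the sliding clamp and its loader, 9 of the DNA polymerases and primase, 6 of single-strand binding and Okazaki fragment processing, 6 of nucleotide synthesis and 4 other S phase genes. All 54 were found among the 23228 genes in the count tables, and all 54 passed the filter on low counts, which kept 13694 genes for testing. The choice of members used no measured values of these libraries, although it was made with earlier results of the same data known. The lowest count of a member in any library was 108 (POLE2) and the highest was 18180 (MCM4).

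DNA replication starts in G1, when the origin recognition complex, CDC6 and CDT1 load the MCM2 to MCM7 helicase onto DNA, a step called licensing. At the start of S phase the kinase CDC7 with DBF4, together with MCM10, CDC45 and the GINS complex, turns the loaded helicase into a moving fork, where the polymerases work with the clamp PCNA and its loader RFC on deoxynucleotides made by ribonucleotide reductase, thymidylate synthase and thymidine kinase. Many of these genes are transcribed in G1 and S phase under E2F factors, with E2F1, E2F2 and E2F3 known mainly as activators and E2F7 and E2F8 as repressors.

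The libraries came from BT-549, an established human triple-negative breast cancer (TNBC) cell line, in 4 groups of 2: vehicle (DMSO), EC359 at 100 nM, vorinostat at 10 µM, and both drugs at those doses, here called the combination, each for 24 h. EC359 is a small-molecule inhibitor of the LIF receptor (LIFR), and vorinostat is a histone deacetylase inhibitor (HDACi). The study asked what EC359 adds to an HDACi in TNBC cells. All 4 groups share 1 cell line, and nothing in the labels says that the 2 libraries of a group came from separate cultures, so p-values measure only the spread between these libraries, which may be technical. Total counts on genes ran from 19069450 to 24759041 per library. VIM, a mesenchymal gene expected of BT-549, was abundant in vehicle at 2166 and 2056 CPM (counts scaled to library size with the normalization factors of edgeR). ESR1 and PGR were at 0 in both vehicle libraries and the epithelial marker EPCAM at 0.189 and 0.14 CPM. The levels of the other listed markers, FN1, CDH2, ZEB1, SPARC, CDH1, KRT8 and KRT18, are not given here. In all, 6 of the listed luminal and epithelial genes passed the filter on low counts. The filter used all 8 libraries, so passing it does not show expression in vehicle. The low values do not stand for that whole list. ERBB2, the receptor gene also used to define TNBC, was measured at 96.1 and 102 CPM in vehicle. The 2 EC359 libraries stood farther apart than any other pair: 6 of the 54 members (RPA3, DUT, TK1, POLD1, LIG1 and CLSPN) differed by more than 0.5 on the log2 scale between them, against 1 in vehicle and 0 in vorinostat. For the comparisons that use EC359, counts of members called without each EC359 library are given beside the result, with log2 fold changes for some genes only.

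Promoter sequence is shown first because the genes of the list are best known as E2F targets. In the 300-base RefSeq windows (250 bases before the transcript start to 50 after; GRCh38.p14 table, first listed window per gene), the words TTCCCGC or TTGGCGC on either strand, both of the E2F type, were found in 28 of the 46 members with a window (60.9%), against 9.3% of all 27305 promoters in the table and 14.9% of the promoters of tested genes. In comparison, 6 of 33 promoters of G2 and mitosis genes (18.2%) held one. The word TTTGAA of the cell cycle homology region (CHR), which marks many mitotic promoters, was found in 3 of the 46 member windows (6.5%) and in 23 of the 33 of the G2 and mitosis genes (69.7%), against 15.4% of all promoters and 9.5% of those of tested genes. Windows of E2F8, MCM4, MCM5, GINS4, POLD3, RPA2, RPA3 and DNA2 were not used here. Below are 47 bases around the first match in 5 members for which that stretch lay wholly upstream of the annotated gene start. They cover the largest decrease under vorinostat (TYMS), the licensing factors MCM3 and CDT1, and the E2F genes E2F3 and E2F7. E2F7 was called higher with EC359, but not when only the 4 libraries compared were fitted. The stretches are written 5′ to 3′ on the gene's strand, with the E2F-type word in capitals.
TYMS: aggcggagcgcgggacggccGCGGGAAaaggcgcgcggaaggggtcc
MCM3: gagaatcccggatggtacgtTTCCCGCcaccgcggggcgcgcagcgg
CDT1: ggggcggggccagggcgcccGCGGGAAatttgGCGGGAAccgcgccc
E2F3: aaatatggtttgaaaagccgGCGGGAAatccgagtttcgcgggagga
E2F7: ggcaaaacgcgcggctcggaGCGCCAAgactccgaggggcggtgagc

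By exact match to GRCh37 (the hg19 build of the counts) these stretches lie at chr18:657594-657640 on the plus strand (TYMS), chr6:52149687-52149733 on the minus strand (MCM3), chr16:88870142-88870188 on the plus strand (CDT1), chr6:20402037-20402083 on the plus strand (E2F3) and chr12:77459456-77459502 on the minus strand (E2F7). CDT1 held 2 words within 47 bases, and the word in TYMS began 39 bases before the transcript start. A match is a run of letters and does not show that a factor binds there.

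To learn how the HDACi alone changed the replication genes, vorinostat was compared with vehicle. Vorinostat lowered 37 of the 54 members and raised 5 at a Benjamini-Hochberg adjusted p under 0.01 in edgeR's quasi-likelihood test, and 12 did not pass. Among all tested genes 25.9% were lower and 26.2% were higher. With an added requirement of more than 2-fold change, 21 members were lower and 1 was higher, against 13.3% and 16.8% of all tested genes. The median log2 fold change of the members was -0.83, whereas that of all tested genes was 0.03. In 44 members both vorinostat libraries lay below both vehicle libraries and in 10 both lay above, with no member overlapping (43.6% and 45.3% of all tested genes). Every subgroup had a negative median, from -0.50 for the clamp and loader to -1.25 for the E2F factors. In bulk RNA, fewer cells expressing a gene and less RNA per cell cannot be told apart. For most genes, the heatmap of all members by library shows the 4 libraries without vorinostat near the vehicle level and the 4 with it in blue. Exceptions include TK1, RPA3, DUT and LIG1, for which EC359 replicate 1 lay well below both vehicle libraries.

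**Figure D1:**
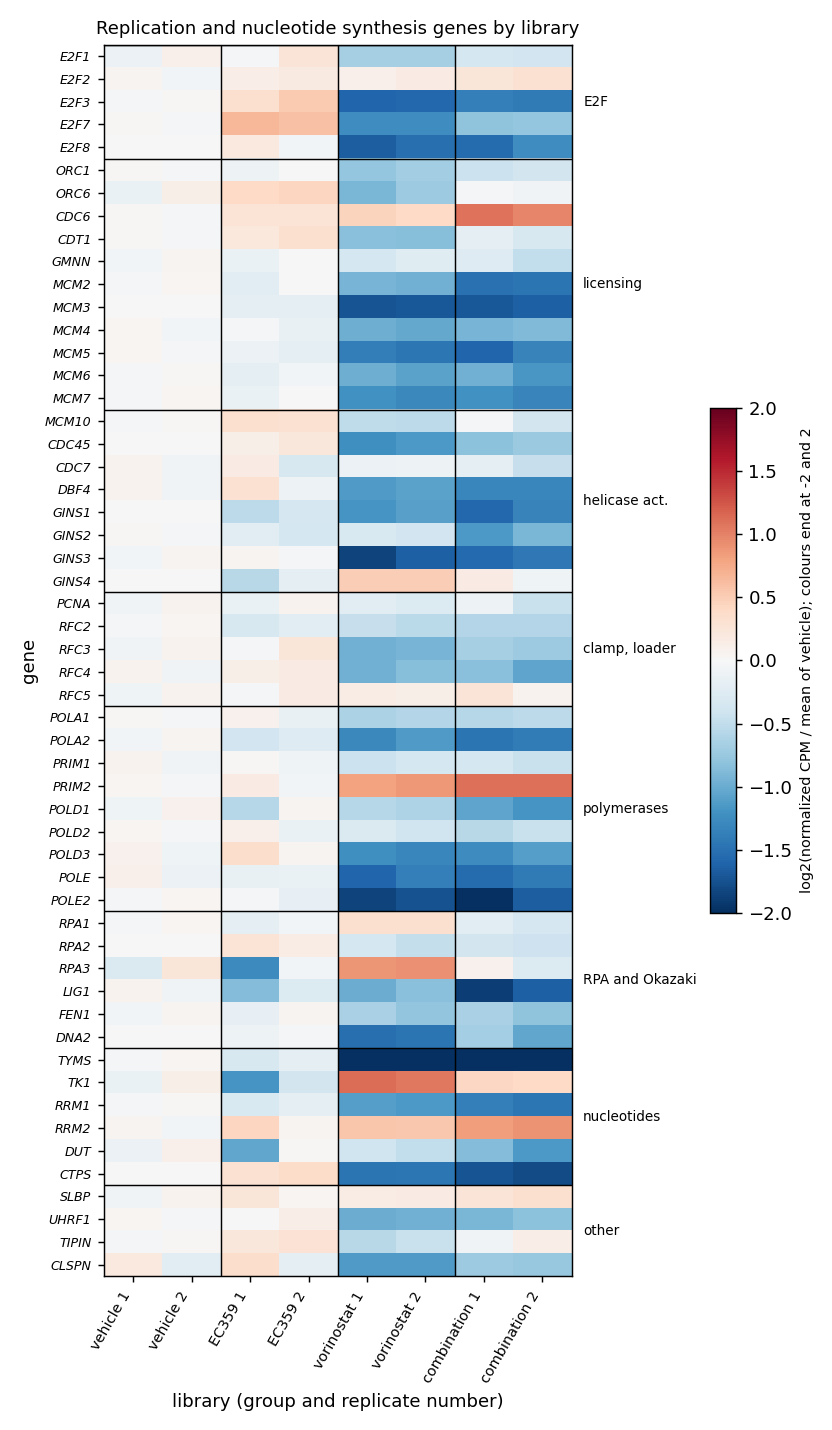
Each row is 1 of the 54 genes and each column 1 library; colour is the log2 ratio of normalized CPM to the mean of the 2 vehicle libraries, ending at -2 and 2, so TYMS (log2 fold change -3.0 with vorinostat) lies past the end of the scale. The red rows in the vorinostat and combination columns include CDC6, PRIM2, TK1 and RRM2.

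Of the E2F factors, 4 of 5 fell with vorinostat. E2F3 was measured at 59.5 and 61.0 CPM in vehicle, 75.2 and 86.2 with EC359, 20.1 and 20.3 with vorinostat, and 23.4 and 22.7 with the combination. It fell by 1.58 on the log2 scale with vorinostat (SE 0.11, edgeR adjusted p = 2.75e-06). Both libraries of each vorinostat-treated group lay below every library without vorinostat. E2F8 fell by 1.57 (SE 0.16, edgeR adjusted p = 2.77e-05), E2F7 fell by 1.25 (SE 0.10, edgeR adjusted p = 8.07e-06) and E2F1 fell by 0.66 (SE 0.12, edgeR adjusted p = 0.00117), so that an activator and both repressors were among the genes with the larger decreases. The call for E2F1 was lost without vehicle replicate 2 (adjusted p = 0.0142) and without either vorinostat library (0.0141 and 0.013). E2F2 had a log2 fold change of 0.13 and did not pass. Among 8 genes that act with the E2F factors and were listed beside them (partners of the DP family, pocket proteins and other E2Fs), 4 were lower with vorinostat and 0 higher, among them E2F5 (-1.5) and TFDP1 (-1.38), the DP partner of the E2F activators. RB1, the pocket protein that holds E2F activators in check, was at 40.1 and 38.2 CPM in vehicle and 29.6 and 29.2 with vorinostat and did not pass.

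Origin licensing genes fell with vorinostat in 9 of 11 cases, and 1 rose. All 6 subunits of the MCM2 to MCM7 helicase were lower, with log2 fold changes between -1.71 (MCM3) and -0.94 (MCM2). MCM3 was measured at 372 and 371 CPM in vehicle, 326 and 323 with EC359, 112 and 115 with vorinostat, and 115 and 119 with the combination, a decrease to 0.305 of the vehicle level with vorinostat (log2 fold change -1.71, SE 0.08, edgeR adjusted p = 4.32e-07). Replicates of MCM3 differed by a few CPM at most, and the groups with and without vorinostat did not overlap. Per kilobase of transcript, MCM4 was the most abundant subunit in vehicle (189.7 CPM per kb) and MCM5 the least (45.9), a ratio of 4.13 that was 5.47 with vorinostat. CDT1, which brings the helicase to origins, fell by 0.85 (SE 0.10, edgeR adjusted p = 6.24e-05), ORC6 fell by 0.82 (SE 0.12, edgeR adjusted p = 0.000272) and ORC1 fell by 0.74. GMNN, the inhibitor of CDT1, had a log2 fold change of -0.30 and did not pass. CDC6, the partner of CDT1 in loading, went the other way, from 86.1 and 84.1 CPM in vehicle to 116 and 112 with vorinostat (log2 fold change 0.42, SE 0.09, edgeR adjusted p = 0.00209). As a result the ratio of CDC6 to MCM3 transcripts was 0.229 ± 0.00341 in vehicle and 1.01 ± 0.0412 with vorinostat (SD, n = 2, ratio of normalized CPM).

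Of the 8 helicase activation genes, 5 fell and 1 rose with vorinostat. CDC45 fell by 1.19, GINS1 by 1.13, DBF4 by 1.10 and MCM10 by 0.51, whereas the kinase CDC7 had a log2 fold change of -0.11 and did not pass. The 4 GINS subunits, which form 1 complex, moved apart. GINS3 was measured at 39.5 and 42.6 CPM in vehicle, 42.8 and 40.3 with EC359, 11.4 and 13.3 with vorinostat, and 14.0 and 15.3 with the combination, and fell by 1.73 with vorinostat (SE 0.13, edgeR adjusted p = 4.80e-06). GINS4 was measured at 111 and 110.3 CPM in vehicle and 155 in both vorinostat libraries (log2 fold change 0.49, SE 0.13, edgeR adjusted p = 0.00873). GINS2 was at 57.3 and 55.6 CPM in vehicle and 45.6 and 43.3 with vorinostat, lower in both libraries, but did not pass (log2 fold change -0.34, edgeR adjusted p = 0.023). The subunits thus spanned 2.22 log2 units, against 0.77 for the MCM helicase.

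The clamp PCNA had a log2 fold change of -0.24 and did not pass, while 3 of the 4 small clamp loader subunits fell. RFC3 was measured at 155 and 170.2 CPM in vehicle, 158 and 193 with EC359, 83.9 and 85.7 with vorinostat, and 102 and 97.7 with the combination (log2 fold change with vorinostat -0.94, SE 0.11, edgeR adjusted p = 8.23e-05). RFC4 fell by 0.91 and RFC2 by 0.50, whereas RFC5 had a log2 fold change of 0.13 and did not pass. RFC2 did not pass without vehicle replicate 2 (adjusted p = 0.0175) or without either vorinostat library (0.0129 and 0.0249).

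The polymerase genes fell in 6 of 9 cases with vorinostat. Both subunits measured of DNA polymerase epsilon, the leading strand polymerase, were lower: POLE2 was at 22.3 and 23.5 CPM in vehicle, 22.5 and 20.5 with EC359, 6.33 and 6.84 with vorinostat, and 5.53 and 7.30 with the combination. POLE2 fell by 1.80 (SE 0.16, edgeR adjusted p = 1.50e-05) and POLE by 1.48 (SE 0.12, edgeR adjusted p = 6.64e-06) with vorinostat. Of DNA polymerase delta, POLD3 fell by 1.26, and POLD1 and POLD2 did not pass (log2 fold changes -0.59 and -0.34). The polymerase alpha and primase complex, which lays down RNA-DNA primers, was split: POLA2 fell by 1.20, POLA1 by 0.61 and the catalytic primase subunit PRIM1 by 0.39, while PRIM2, the large primase subunit, rose. PRIM2 was measured at 43.1 and 40.6 CPM in vehicle, 46.9 and 40.4 with EC359, 72.9 and 76.5 with vorinostat, and 90.1 and 89.9 with the combination (log2 fold change with vorinostat 0.84, SE 0.10, edgeR adjusted p = 0.000105). The ratio of PRIM2 to PRIM1 went from 0.773 ± 0.0185 in vehicle to 1.81 ± 0.00303 with vorinostat and 2.19 ± 0.101 with the combination (SD, n = 2). PRIM1 was close to the threshold and did not pass in DESeq2 (adjusted p = 0.0118), and both genes have limits as measured. PRIM1 overlaps NACA on the same strand. PRIM2 overlaps annotated genes without a symbol on the same strand and has 1 named pseudogene.

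Among the genes of single-strand binding and Okazaki fragment processing, 4 of 6 fell. DNA2, a nuclease that trims long flaps, was measured at 28.4 and 27.9 CPM in vehicle, 26.3 and 27.6 with EC359, 9.88 and 10.2 with vorinostat, and 17.6 and 13.6 with the combination. DNA2 fell by 1.49 with vorinostat (SE 0.15, edgeR adjusted p = 2.59e-05), and the combination libraries lay between the vorinostat and the vehicle libraries. The ligase LIG1 fell by 0.91, the flap nuclease FEN1 by 0.72 and the RPA subunit RPA2 by 0.41. The call for LIG1 was lost without vehicle replicate 1 (adjusted p = 0.0162) or either vorinostat library (0.0221 and 0.0103), and that for RPA2 without any 1 of these 4 libraries (0.0199 to 0.0534). RPA1, the largest subunit of RPA, and RPA3 had log2 fold changes of 0.31 and 0.90 and did not pass (edgeR adjusted p = 0.0124 and 0.0369). RPA3 was measured at 15.3 and 22 CPM in vehicle and 34.4 and 35.3 with vorinostat.

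Nucleotide synthesis genes showed the largest decrease and the largest increase of the list. TYMS, thymidylate synthase, which makes dTMP from dUMP and is the target of fluorouracil, was measured at 303 and 321 CPM in vehicle, 249 and 273 with EC359, 40.5 and 37.3 with vorinostat, and 29.9 and 26.8 with the combination. With vorinostat it fell by 3.0 on the log2 scale, to 0.125 of the vehicle level (SE 0.11, edgeR adjusted p = 2.09e-07). Every library with vorinostat lay far below every library without it, and the TYMS gene overlaps ENOSF1 and TYMSOS on the opposite strand and has 2 named pseudogenes. TK1, thymidine kinase, which makes dTMP from thymidine by the salvage route, was measured at 139.6 and 165 CPM in vehicle, 67.5 and 119 with EC359, 330.4 and 318 with vorinostat, and 204 and 199.8 with the combination. It rose with vorinostat by 1.09 (SE 0.21, edgeR adjusted p = 0.00173). The ratio of TK1 to TYMS transcripts was 0.488 ± 0.0377 in vehicle, 0.353 ± 0.115 in the EC359 group, 8.33 ± 0.252 with vorinostat and 7.14 ± 0.465 with the combination (SD, n = 2), so both vorinostat-treated groups stood far outside the spread of the other groups.

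The 2 subunits of ribonucleotide reductase, which makes deoxynucleotides from ribonucleotides, also moved apart. RRM1, the large subunit, was measured at 279 and 291 CPM in vehicle and 133 and 128 with vorinostat, and fell by 1.13 (SE 0.09, edgeR adjusted p = 6.53e-06). RRM2, the small subunit, was measured at 484 and 445 CPM in vehicle, 626 and 482 with EC359, 681 and 673 with vorinostat, and 832 and 868 with the combination, and rose by 0.54 with vorinostat (SE 0.12, edgeR adjusted p = 0.00316). The ratio of RRM2 to RRM1 was 1.63 ± 0.147 in vehicle, 2.32 ± 0.575 in the EC359 group, 5.19 ± 0.0839 with vorinostat and 7.93 ± 0.544 with the combination (SD, n = 2). CTPS (CTPS1), which makes CTP from UTP, was measured at 135 and 138 CPM in vehicle, 169 and 176 with EC359, 49.4 and 50.1 with vorinostat, and 41.2 and 39.5 with the combination, and fell by 1.46 with vorinostat (SE 0.09, edgeR adjusted p = 1.42e-06). DUT, which removes dUTP, had a log2 fold change of -0.44 and did not pass. The RRM2 count may share reads with 3 named pseudogenes and that of DUT with 8.

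**Figure D2:**
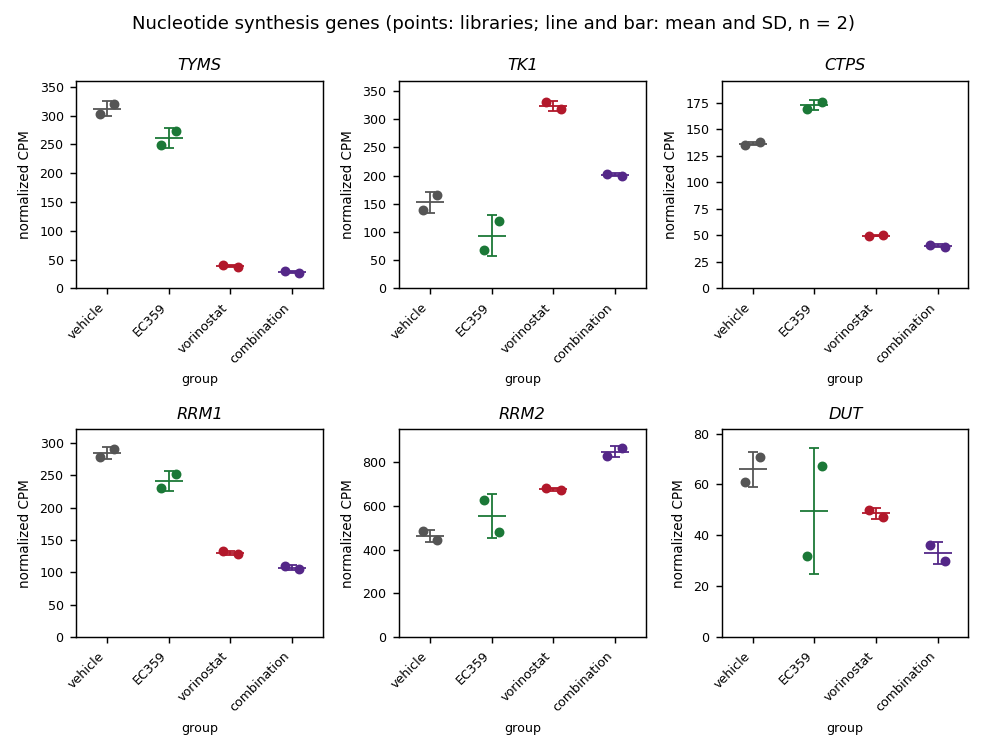
Normalized CPM of the 6 nucleotide synthesis genes in each of the 4 groups; points are libraries, and the line and bars are the mean and SD (n = 2). TYMS, CTPS and RRM1 lie low and RRM2 high in both vorinostat-treated groups, TK1 is highest with vorinostat alone, and DUT shows the wide gap between the 2 EC359 libraries (32.0 and 67.3 CPM).

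Of the 5 increases with vorinostat (CDC6, PRIM2, RRM2, TK1 and GINS4), only PRIM2 passed the threshold whichever 1 vehicle or vorinostat library was left out. Without vehicle replicate 2, TK1 also passed (0.0104 to 0.0221 without the others), so the number of members higher was 2 without that library and 1 without vehicle replicate 1, vorinostat replicate 1 or vorinostat replicate 2. The direction did not change in any of these fits. CDC6, GINS4 and RRM2 had adjusted p between 0.0157 and 0.0544 in them, and GINS4 was also lost without combination replicate 1 or 2 (0.014 and 0.0137). Of the decreases, those of MCM10 (adjusted p 0.0209 to 0.0317), TIPIN (0.0311 to 0.0663) and PRIM1 (0.0201 to 0.0753) were lost without any 1 of the vehicle or vorinostat libraries, PRIM1 also without either combination library (0.0116 and 0.0118), and that of POLA1 was lost without vorinostat replicate 1 (0.0105).

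The other S phase genes UHRF1 (-0.97), TIPIN (-0.49) and CLSPN were lower with vorinostat, and the histone mRNA binding gene SLBP (0.16) did not pass. CLSPN, the checkpoint mediator claspin, was measured at 138 and 103 CPM in vehicle, 155 and 105 with EC359, 55 and 55.1 with vorinostat, and 72.8 and 71.6 with the combination, and fell by 1.13 with vorinostat (SE 0.19, edgeR adjusted p = 0.000615). In both vehicle and EC359, replicate 1 was the higher library for CLSPN. Further genes of the same pathways, listed with earlier results of these data known, were also more often lower than higher. Of 38 other replication genes 21 were lower and 3 higher, with a median of -0.68. Of 39 other genes of the nucleotide pool 19 were lower and 3 higher, with a median of -0.60. In the latter list the largest decrease was that of DCTD, which supplies dUMP to TYMS, by 2.10. The largest increase was that of SAMHD1, which breaks down dNTPs, by 2.67. Both were named for these values. SAMHD1 was measured at 25.0 and 23.4 CPM in vehicle and 149 and 158 with vorinostat. A list of 40 G2 and mitosis genes had 33 lower and 1 higher with a median of -0.78, so decreases were not limited to S phase genes.

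With respect to promoters, the E2F-type words were found in 22 of the 31 windows of members lower with vorinostat (71.0%), in 1 of 4 windows of members higher (25.0%) and in 5 of 11 of those that did not pass (45.5%). The windows of PRIM2, TK1 and RRM2 held none, and that of CDC6 held 1, which began 8 bases after the transcript start. Lowered members without a word included MCM2, CDC45, POLA2 and FEN1. Only these exact words in the first listed window were searched, so a window without one does not show that E2F sites are absent.

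To learn how vorinostat changed these genes when EC359 was present, the combination was compared with EC359 alone. This comparison shares no library with that of vorinostat and vehicle. The combination lowered 37 members and raised 4, against 26.3% lower and 29.5% higher among all tested genes, with a median of -0.76. More than 2-fold, 19 were lower and 2 higher (13.9% and 19.8% of all tested genes). In 42 members both combination libraries lay below both EC359 libraries and in 7 both lay above (37.4% and 42.3% of all tested genes). Between both comparisons 34 members were lower in each, 4 (CDC6, PRIM2, RRM2 and TK1) were higher in each, and 0 were called in opposite directions. The sign of the log2 fold change was shared by 53 of 54 members (Pearson's r = 0.95 across genes, which are not independent replicates). The shared calls, signs and correlation over all tested genes are not given here, so this agreement is not shown to be particular to the members. GINS4, RFC2, PRIM1 and TIPIN passed only without EC359, and GINS2, POLD1 and POLD2 passed only with it. For these 7 genes the difference between both effects is the interaction given below, in which none of them passed. TYMS fell by 3.20 (SE 0.11, edgeR adjusted p = 9.34e-08), CTPS fell by 2.10 (SE 0.09, edgeR adjusted p = 2.08e-07) and PRIM2 rose by 1.04 (SE 0.10, edgeR adjusted p = 2.28e-05). Without combination replicate 1 or 2 the increases of TK1 (adjusted p = 0.0187 and 0.0168) and RRM2 (0.0141 and 0.0223) were lost, so that 2 members were higher and 31 lower. The decrease of POLD1 was lost without either of them (adjusted p = 0.0123 and 0.0193), and that of POLD2 without combination replicate 1 (0.0159). Without EC359 replicate 1 or 2, 39 and 38 members were lower and 4 and 6 higher, and TK1, RRM2 and POLD1 passed in both fits with unequal sizes. The log2 fold change of TK1 was 0.75 without EC359 replicate 1 and 1.56 without replicate 2, that of RRM2 was 0.80 and 0.42, and that of POLD1 was -1.18 and -0.55.

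**Figure D3:**
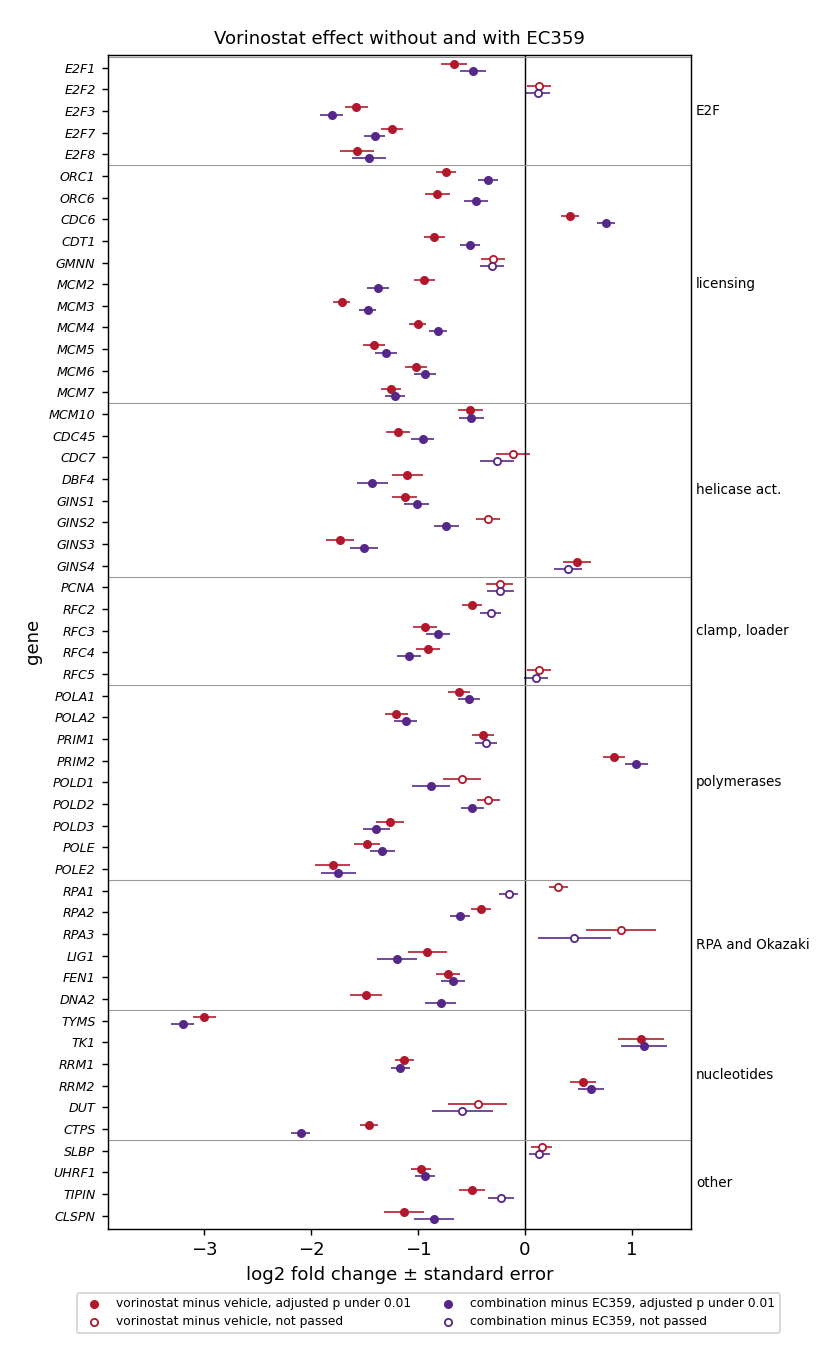
Log2 fold change ± standard error for vorinostat minus vehicle (red) and combination minus EC359 (purple) for each of the 54 genes, with filled points at adjusted p under 0.01 and open points above it. TYMS lies near -3 in both, PRIM2, TK1, RRM2 and CDC6 lie right of 0 in both, and for 49 of the 54 genes the 2 points lie less than 0.4 apart.

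To find out what EC359 did alone, it was compared with vehicle. At the same threshold 1 member was higher, E2F7, and 0 were lower, against 3.81% higher and 4.01% lower among all tested genes. At an unadjusted p under 0.05 there were 17 members, 10 lower and 7 higher, and DESeq2 called 1 lower (TK1) and 3 higher (E2F3, E2F7 and CTPS). Shares of all tested genes by these criteria are not given, so these counts do not show whether the members stood apart. No member changed by more than 2-fold, against 1.72% of all tested genes lower and 1.94% higher. In 15 members both EC359 libraries lay below both vehicle libraries, in 12 both lay above and 27 overlapped (28.8% and 24.6% of all tested genes lay below and above). The median log2 fold change was -0.03, against -0.02 for all tested genes. E2F7, a repressor that is itself an E2F target, was measured at 42.8 and 41.0 CPM in vehicle, 66.1 and 63.1 with EC359, 17.6 in both vorinostat libraries, and 24.1 and 24.6 with the combination. It rose by 0.62 with EC359 (SE 0.10, edgeR adjusted p = 0.00289). Both EC359 libraries lay above both vehicle libraries, and the call was lost without vehicle replicate 1 or 2 (adjusted p = 0.0318 and 0.0477) and without vorinostat replicate 1 or 2 (0.0112 for each), with log2 fold changes between 0.60 and 0.66. All 5 E2F factors had positive log2 fold changes with EC359, from 0.08 (E2F8) to 0.62, and E2F3 (0.42, edgeR adjusted p = 0.0231) was the next largest.

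TK1 had the lowest log2 fold change with EC359, -0.71 (SE 0.22, edgeR adjusted p = 0.0527), with 67.5 CPM in EC359 replicate 1 and 119 in replicate 2. Without EC359 replicate 2, which left the first library alone in its group, 7 members were lower (GINS1, GINS4, POLD1, RPA3, LIG1, TK1 and DUT) and 3 were higher (E2F7, RRM2 and CTPS). Without EC359 replicate 1, 0 were lower and 3 were higher (E2F3, E2F7 and CTPS). All 7 of these decreases were called in 1 of these fits, and E2F7 and CTPS were called higher in both. The spread is estimated over all groups, so it changed when either EC359 library was left out. Shares of all tested genes in these fits are not given, so their counts do not compare the members with other genes. GINS1, which passed as lower without replicate 2, was measured at 104 and 119 CPM with EC359 against 149.7 and 151 in vehicle, and did not pass with all 8 libraries (log2 fold change -0.43, SE 0.11, edgeR adjusted p = 0.0292). Among the 40 G2 and mitosis genes 7 were lower with EC359 and 0 higher, with a median of -0.32.

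To find out what EC359 added to vorinostat, the combination was compared with vorinostat alone. In this comparison 3 members were higher (ORC6, CDC6 and CDT1) and 3 were lower (GINS2, RPA1 and MCM2), against 8.45% higher and 5.26% lower among all tested genes, and 0 changed by more than 2-fold, against 3.37% higher and 0.876% lower. In 22 members both combination libraries lay above both vorinostat libraries, in 18 both lay below and 14 overlapped (36.2% and 36.7% of all tested genes lay above and below). The median was -0.0045, against -0.0082 for all tested genes. By these calls and the median, the members did not stand apart from all tested genes. Of the 11 licensing genes 3 were higher, 1 was lower (MCM2) and 7 did not pass, with a median of 0.05.

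ORC6, a subunit of the origin recognition complex, was measured at 44.9 and 53.5 CPM in vehicle, 64.7 and 66.1 with EC359, 26.1 and 29.7 with vorinostat, and 48.4 and 46.8 with the combination. Adding EC359 to vorinostat raised it by 0.77 (SE 0.12, edgeR adjusted p = 0.00197), and the combination libraries lay within the range of the vehicle libraries (log2 fold change against vehicle -0.05, 95% interval -0.31 to 0.22). CDT1 was measured at 70.6 and 68.5 CPM in vehicle, 80.7 and 86.5 with EC359, 38.8 and 38.4 with vorinostat, and 61.5 and 55.7 with the combination. It rose by 0.60 (SE 0.10, edgeR adjusted p = 0.00243), and its combination libraries lay between those of vorinostat and vehicle. CDC6 was measured at 103 CPM in both EC359 libraries and at 180.3 and 168 with the combination, above every library of the other groups. It rose by 0.61 relative to vorinostat (SE 0.09, edgeR adjusted p = 0.0012) and by 1.03 relative to vehicle (SE 0.09, edgeR adjusted p = 6.93e-06). The ratio of CDT1 to its inhibitor GMNN was highest in the EC359 libraries at 1.45 ± 0.00943, against 1.15 ± 0.0799 in vehicle, 1.25 ± 0.0525 in the combination and 0.784 ± 0.0479 under vorinostat alone (SD, n = 2).

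MCM2 was measured at 212 and 224 CPM in vehicle, 186 and 220.1 with EC359, 115 and 112 with vorinostat, and 77.5 and 79.4 with the combination. It fell by 0.53 when EC359 was added (SE 0.10, edgeR adjusted p = 0.00516), whereas the log2 fold changes of the other 5 MCM subunits lay between -0.04 and 0.09. GINS2 was measured at 48.1 and 44.3 CPM with EC359, 45.6 and 43.3 with vorinostat, and 25.5 and 30.0 with the combination, and fell by 0.68 (SE 0.11, edgeR adjusted p = 0.00294). RPA1 was measured at 392 and 414 CPM in vehicle, 352 and 389 with EC359, 500.4 and 501 with vorinostat, and 349.6 and 318 with the combination, and fell by 0.58 (SE 0.09, edgeR adjusted p = 0.0019). For GINS2 and MCM2 the combination gave the lowest values of the 4 groups, while RPA1 was highest with vorinostat alone and lower in the combination than in vehicle. Reads of GINS2 and RPA1 may include those of GSE1 and SMYD4, which overlap them on the opposite strand.

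**Figure D4:**
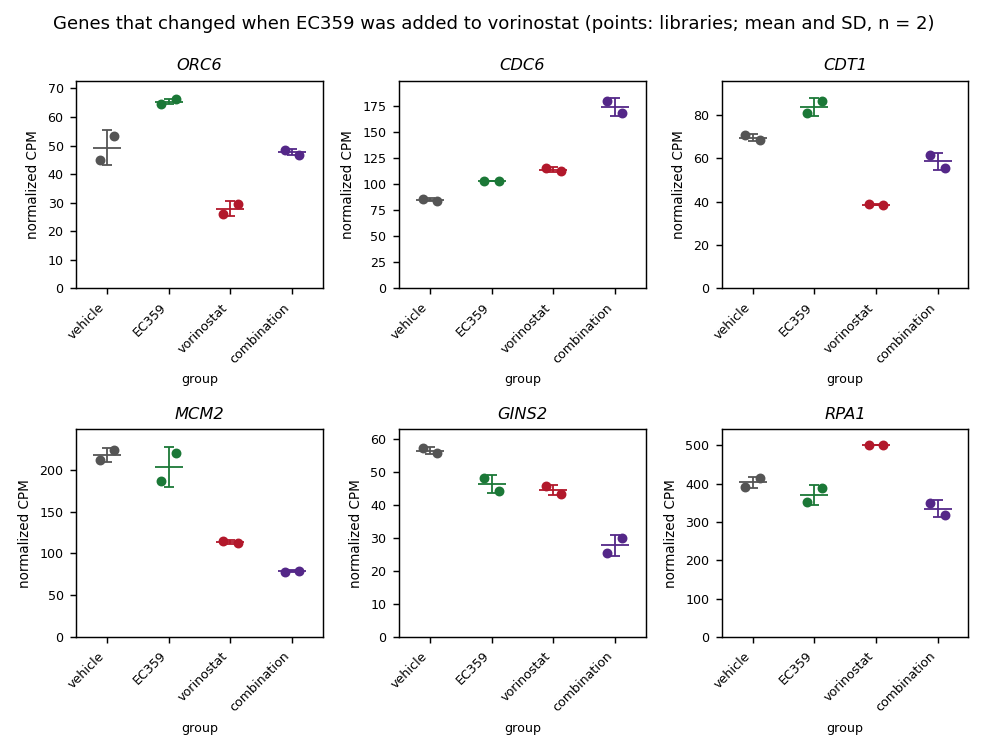
Normalized CPM of the 6 genes that passed the test in the combination against vorinostat alone; points are libraries, and the line and bars are the mean and SD (n = 2). ORC6 and CDT1 are lowest with vorinostat alone, CDC6 is highest in the combination (180.3 and 168 CPM), and MCM2 and GINS2 are lowest there.

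The counts in this comparison depended on which libraries set the spread. Shares of all tested genes in the fits with a library left out are not given, so their counts do not compare the members with other genes. Without EC359 replicate 1 or replicate 2, neither of which is part of the comparison, 12 members were lower and 9 higher, since the spread is estimated over all groups. Without vehicle replicate 1 or 2, 1 was lower and 3 were higher, and without vorinostat replicate 1 or 2 or combination replicate 1 or 2, 0 or 1 was lower (GINS2, without combination replicate 2) and 0 were higher. Beyond the 6 genes, the 12 lower without an EC359 library included TYMS, TK1, RRM1, CTPS, LIG1 and DUT, and the 9 higher included E2F7, RRM2, DNA2 and TIPIN. TYMS fell short of the threshold with all 8 libraries (log2 fold change -0.46, edgeR adjusted p = 0.0116), with 40.5 and 37.3 CPM with vorinostat and 29.9 and 26.8 with the combination. In the list of G2 and mitosis genes, 14 were lower and 0 higher when EC359 was added to vorinostat, with a median of -0.43.

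The changes with EC359 can be set side by side without and with vorinostat, from separate libraries. The signs were the same for 46 of 54 members (Pearson's r = 0.77 across genes). Neither value is given for all tested genes, so this agreement is not shown to be particular to the members. No member passed in both: E2F7 was the 1 gene called without vorinostat, and had a log2 fold change of 0.47 with it (edgeR adjusted p = 0.0107). ORC6, CDC6 and CDT1 had log2 fold changes of 0.41, 0.28 and 0.27 with EC359 alone, in the direction of their changes with vorinostat present.

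**Figure D5:**
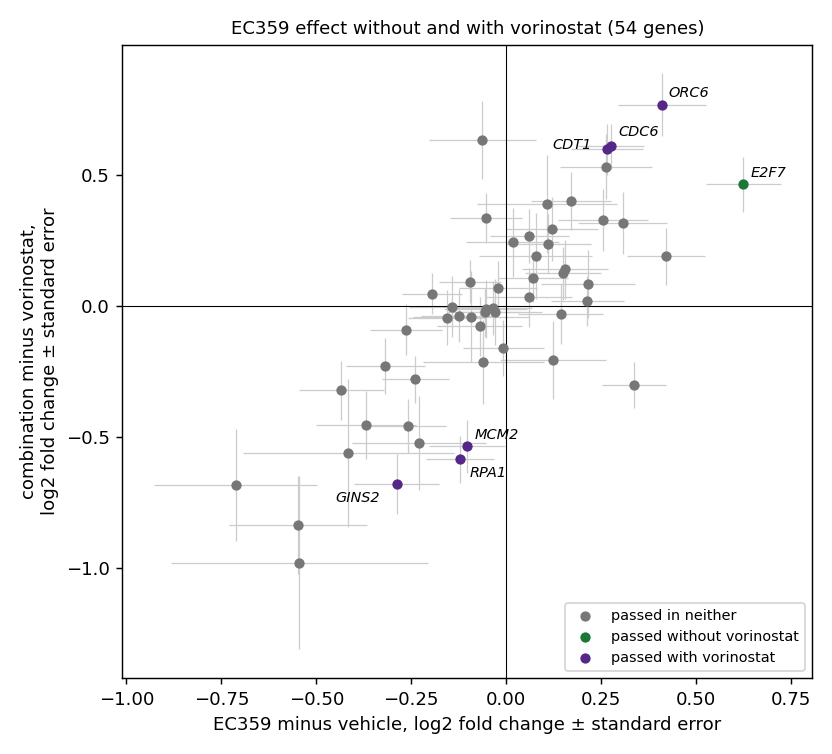
Each point is 1 of the 54 genes, with the log2 fold change ± standard error of EC359 minus vehicle on the x axis and of combination minus vorinostat on the y axis; coloured and named genes passed at adjusted p under 0.01 in 1 of the comparisons. Most points lie along the rising diagonal, with E2F7 at 0.62 and 0.47 and ORC6 at 0.41 and 0.77.

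Whether the effect of EC359 differed with and without vorinostat was tested by the interaction of both drugs. No member passed (0 above and 0 below the sum of the single effects, against 1.62% and 0.482% of all tested genes), 8 had an unadjusted p under 0.05, and DESeq2 called 1 below, CTPS. For the counts at an unadjusted p and in DESeq2, shares of all tested genes are not given. CTPS had the smallest adjusted p, with an interaction of -0.64 (SE 0.12, 95% interval -0.91 to -0.36, edgeR adjusted p = 0.0171). Its log2 fold change was 0.34 with EC359 alone (edgeR adjusted p = 0.026) and -0.30 when EC359 was added to vorinostat (edgeR adjusted p = 0.0317). Neither of these changes passed. Without EC359 replicate 1, 4 members were below the sum (MCM2, POLD1, RPA1 and CTPS), and without EC359 replicate 2, CTPS was. The largest positive interaction was that of DNA2 (0.70, SE 0.21, edgeR adjusted p = 0.082). For ORC6, CDC6 and CDT1 the interactions were 0.36, 0.33 and 0.34 (edgeR adjusted p = 0.242, 0.145 and 0.189), so a larger effect of EC359 with vorinostat than without it was not shown for them.

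Finally, the combination was compared with vehicle, to give the net change with both drugs. Of the 54 members 35 were lower and 3 higher (CDC6, PRIM2 and RRM2), against 26.7% and 29.7% of all tested genes, with a median of -0.76 against 0.07 for all tested genes. With more than 2-fold change 20 were lower and 2 were higher, CDC6 and PRIM2 (15.3% and 19.5% of all tested genes). In 43 members both combination libraries lay below both vehicle libraries and in 6 both lay above (41.3% and 45.3% of all tested genes). TYMS fell to 0.0908 of the vehicle level (log2 fold change -3.46, SE 0.11, edgeR adjusted p = 4.49e-08), POLE2 fell by 1.84 (SE 0.17, edgeR adjusted p = 1.09e-05) and CTPS fell by 1.76 (SE 0.09, edgeR adjusted p = 3.81e-07). PRIM2 rose by 1.10 (SE 0.10, edgeR adjusted p = 1.51e-05) and RRM2 rose by 0.87 (SE 0.12, edgeR adjusted p = 0.000164). TK1 was at 204 and 199.8 CPM, above both vehicle libraries, but did not pass (log2 fold change 0.40, edgeR adjusted p = 0.119). CDT1 did not pass either (log2 fold change -0.25, edgeR adjusted p = 0.0439). All 9 polymerase and primase genes passed, 8 lower and PRIM2 higher, although POLA1 was lost without vehicle replicate 1 (adjusted p = 0.014), POLD2 without vehicle replicate 1 or 2 (0.0252 and 0.0123) or combination replicate 1 (0.0169), and PRIM1 without any 1 vehicle, vorinostat or combination library (0.0112 to 0.0663). Without either EC359 library 5 members were higher. The G2 and mitosis genes had 37 of 40 lower and 0 higher, with a median of -1.20. Of all counts on genes, the 54 members took 0.741% and 0.752% in vehicle, 0.69% and 0.746% with EC359, 0.525% and 0.52% with vorinostat and 0.485% and 0.476% with the combination. This share, taken without the normalization factors, fell with vorinostat and was lowest in the combination. In normalized CPM the members summed to 7322.8 and 7378.5 in vehicle and 5151.0 and 5093.4 with vorinostat. The combination stood at 5077.7 and 4931.8, close to vorinostat, and the median log2 fold change between these groups was -0.0045. A further decrease of the whole list with EC359 was thus not shown.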

How the data were processed

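RNA-seq of BT-549 cells (8 libraries, 4 groups of 2) was analysed from the raw read counts per gene that the authors deposited. According to the methods and the submitters' processing notes, the authors aligned to hg19 with TopHat2 (2.0.8b) and counted on RefSeq genes with HTSeq. Whether strand was used in counting is not given in the sources used here, so reads of genes that overlap on opposite strands may be mixed, and reads of near-identical pseudogenes may be split or lost. The 5 summary lines of HTSeq were left out. Counts were fitted in R 4.3.3 with edgeR 4.0.16 (TMM, filterByExpr, quasi-likelihood test, all 8 libraries with 1 mean per group), with Benjamini-Hochberg adjustment over 13694 genes and a threshold of 0.01, and the 2-fold count is given beside it. Depth of 19069450 to 24759041 counts per library left every member at 108 counts or more. Members and lists were chosen with earlier results of these data known. Values in every library are given for the 3 members with the largest and the 3 with the smallest passed log2 fold change per comparison and for the member that moved most with vorinostat in each subgroup. GINS4, RRM1, RPA3, E2F1 and others given by name were added after their values were seen. Alternatives were DESeq2 1.42.0, other scalings and filters, other thresholds, only the 4 libraries compared, a replicate block and leaving out each library. Promoter windows were from RefSeq, and gene positions, lengths and overlaps from GENCODE on GRCh37. CTPS was matched as CTPS1. No set test was run.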

Additional observations from a re-analysis of the deposited data

How the results depend on the processing

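No alternative reversed the direction of a member that had passed. Under DESeq2, RLE size factors, total counts and both other filters the counts of members lower and higher stayed within 1.5 times for vorinostat and for the combination against vehicle and against EC359. With only the 4 libraries compared, 33 of the members that passed in the combination against EC359 were kept and 8 were lost. In that setting 0 were lost for vorinostat against vehicle and 0 for the combination against vehicle. EC359 against vehicle had 1 lower and 3 higher under DESeq2, 1 and 4 at an adjusted p under 0.05, and 0 higher with a 2-fold requirement or with only the 4 libraries compared. The 2-fold requirement left 21 lower and 1 higher for vorinostat against vehicle, 20 lower for the combination against vehicle, 19 lower and 2 higher against EC359, and 0 and 0 against vorinostat. The combination against vorinostat had 8 lower and 5 higher under DESeq2, 5 lower with RLE size factors or no filter, 9 and 8 at an adjusted p under 0.05, and 11 and 11 with only the 4 libraries compared. The interaction had 1 below the sum under DESeq2 and at an adjusted p under 0.05. Apart from the 2-fold requirement, shares of all tested genes are not given for these alternatives or for the fits with a library left out. When each library was left out in turn, the lone library of its group being assumed to vary like the others, EC359 against vehicle had 0 to 7 lower and 0 to 3 higher, vorinostat against vehicle 29 to 42 lower and 1 to 7 higher, the combination against vehicle 29 to 40 lower and 3 to 5 higher, against vorinostat 0 to 12 lower and 0 to 9 higher, and against EC359 31 to 39 lower and 2 to 6 higher, with 0 to 4 below the sum.

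The labels give replicate numbers but not what they mark, and the correlations of the deviations of same-numbered libraries lay between -0.241 (EC359 with the combination) and 0.368 (vehicle with EC359), so the numbers were not shown to pair the libraries. With the replicate number as a block, 36 members were lower and 4 higher for vorinostat against vehicle, and 4 were lower and 3 higher for the combination against vorinostat. A block with the numbers of the combination crossed, added after seeing the data, gave 7 lower and 4 higher in the last comparison. The cause was not tested.

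With 2 libraries per group, small differences were not detectable: the standard error of a member in vorinostat against vehicle was between 0.08 (MCM3) and 0.33 (RPA3) on the log2 scale.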
